A study of Mus musculus with 8 samples.

Results

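The genes that activate ubiquitin and its relatives, pass them on or take ubiquitin off again were followed through the response of mouse peritoneal macrophages to IFNγ, the cytokine of activated T and NK cells. All genes whose symbol in the probe annotation begins with Uba and a digit, Ube2, or Usp and a digit were taken, except Usp18 and Usp21. This gave 76 of the 16593 genes measured, with 119 of the 25697 probes: 4 E1 genes, 27 E2 genes and 45 Usp genes. The macrophages came from C57BL/6 mice and formed 4 groups of 2 samples each: FcgKO with IFNγ, FcgKO unstimulated, WT with IFNγ and WT unstimulated. FcgKO cells lack the Fc receptor γ chain, a signalling adaptor of activating Fc receptors, and WT cells carry it. All cells were plated overnight with 10% serum and 15% L929-conditioned medium, a source of M-CSF. Cells that did not adhere were then discarded, and IFNγ was given at 10 ng/ml for 6 h. The labels give no sex or age of the mice, and do not say whether the 2 samples of a group came from separate mice. The p-values therefore rest on the spread of these samples alone, and that spread may be technical.

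Ubiquitin is joined to proteins in a relay. An E1 enzyme activates it, an E2 enzyme carries it, and an E3 ligase guides it to a target, where it can mark the protein for the proteasome or build a signalling platform. The USP enzymes, the largest family of deubiquitinases, remove it. Small relatives of ubiquitin use relays of their own: ISG15, which interferons induce, is activated by the product of Uba7, carried by that of Ube2l6 and removed by that of Usp18. NEDD8, the modifier of cullin ligases, uses Uba3 and Ube2f, and FAT10 uses Uba6 and Ube2z.

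Fcer1g, the gene of the Fc receptor γ chain, matched the labels of all samples. Its intensity was 107 and 98.5 in FcgKO samples with IFNγ and 95.7 and 95.6 in unstimulated FcgKO samples, against 16987 and 18350.0 in WT samples with IFNγ and 17567 and 18350.0 in unstimulated WT samples. The median intensity of an array was 102.98 to 103.02, and replicates correlated with r of 0.996 to 0.9972 across probes, which are not independent replicates. All 7 macrophage markers measured lay above the array median on every array, and 4 of 6 mesothelial markers (Msln, Wt1, Lrrn4 and Krt19) lay under it on every array. Between the genotypes, 0 of the 7 were called without IFNγ. With it Fcgr1 was called higher and Mertk lower in FcgKO, and the 7 differences ranged from -0.71 to 1.10 (log2). Fcgr1 rose and Gata6 fell with IFNγ in both genotypes, and for Fcgr1 alone the difference between the responses was called. With IFNγ Mertk was also called higher, and Adgre1 and Icam2 lower, in WT and not in FcgKO. Markers of other cells were present. Above the array median on every array were 5 of 5 mast cell, 2 of 5 neutrophil, 3 of 4 B cell and 3 of 4 T cell markers. The T cell markers summed to 444.4 to 543.8 over all samples, and 0 of them were called between the genotypes. The 5 mast cell markers summed to 1026 to 1260 in FcgKO and 1828 to 2174 in WT samples. The 5 neutrophil markers summed to 2899 to 3351 in FcgKO and 4059 to 4365 in WT with IFNγ, and to 2530 to 2613 in FcgKO and 2958 to 3850 in WT without it. Most of that sum was S100a8 (log2 difference of -0.51 with IFNγ and -0.48 without it, adjusted p = 0.0668 and 0.18), and the list's median log2 difference, FcgKO minus WT, was 0.06 and 0.03. The 4 B cell markers had negative differences in both states, with medians of -0.22 with IFNγ and -0.24 without it. The smallest adjusted p among them was 0.494. Their sums overlapped, at 1179 to 1499 in FcgKO and 1470 to 2202 in WT with IFNγ and 1277 to 1766 in FcgKO and 1582 to 2362 in WT without it. In such bulk RNA, fewer cells of a type and less RNA per cell cannot be told apart.

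The enzymes lay above the array median more often than all genes did. The brightest probe of a gene lay above the array median on all 8 arrays for 47 of the 76 genes (61.8%), against 7401 of all genes (44.6%). It did so on some arrays for 12 genes and on none for 17. The array median is the lower end of this scale, not a call of detection. Among E2 genes, 20 of 27 were above it on all arrays, and among Usp genes 25 of 45. Mean intensities over 1000 were measured for 6 genes. These were Ube2d2a, an E2 that serves many RING ligases, at 2945; Uba7 at 1354; Ube2b, a Rad6 homologue of DNA damage tolerance and histone ubiquitylation, at 1310.0; Ube2k, which builds degradation chains, at 1261; Ube2f at 1257; and Ube2q1 at 1078. Probes differ in their brightness for the same amount of RNA, so these values do not rank the genes. The Usp17l genes, near-identical copies that probes may not separate, had means of 95.2 to 96.3, under the median. Usp6nl belongs to the set by its symbol alone, since its product is a Rab GTPase-activating protein.

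**Figure D1:**
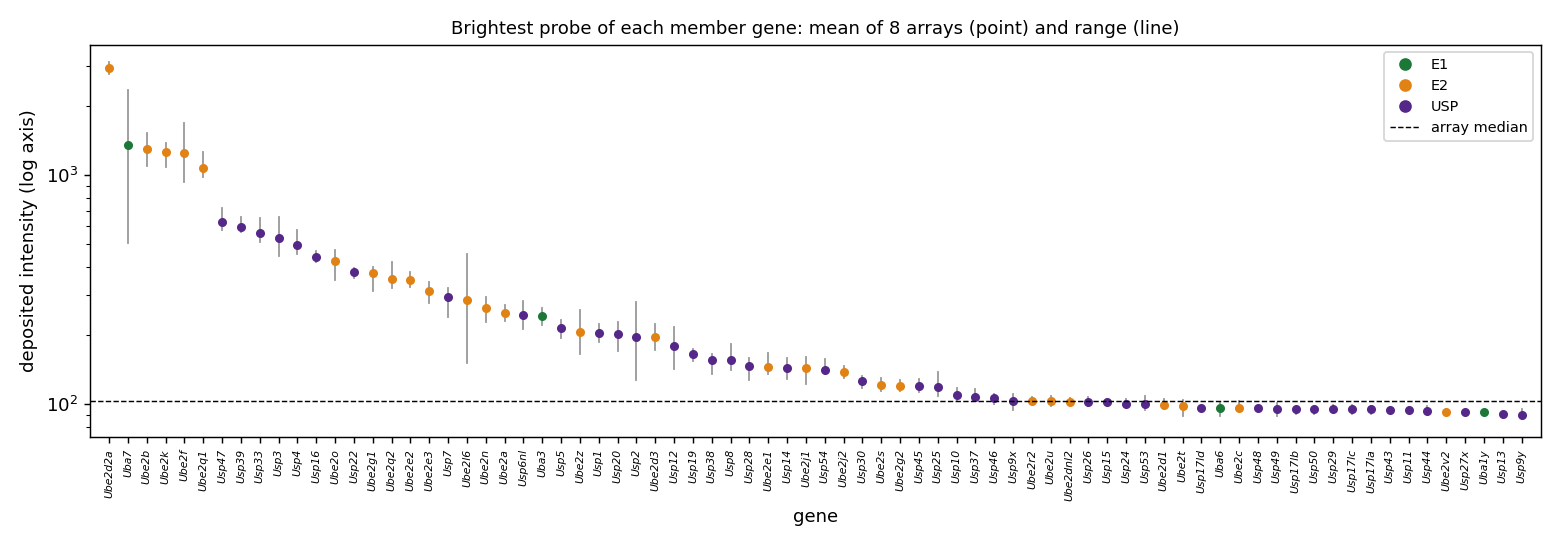
Mean normalised intensity (log axis, arbitrary units) of the brightest probe of each of the 76 genes over the 8 arrays, with bars from the lowest to the highest array and a dashed line at the array median of about 103. The 47 genes above the line on all arrays reach up to Ube2d2a at 2945, and Uba7 has the widest bar of the bright genes.

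The response to IFNγ was asked in each genotype. In FcgKO macrophages 3 of the 76 genes rose (3.95%) and 4 fell (5.26%), against 5.02% of all genes called higher and 6.99% called lower by limma at an adjusted p below 0.05. In WT macrophages 8 rose (10.5%) and 3 fell (3.95%), against 5.53% of all genes called higher and 7.71% called lower. These shares lie near the background in FcgKO. In WT the share of rises lies above it and the share of falls under it, and neither distance was tested. The median log2 fold change over the 76 genes was -0.01 in FcgKO and 0.02 in WT, against -0.02 and -0.01 over all genes. In FcgKO 88.2% of the 76 genes, and in WT 81.6%, lay within 0.25 of zero on the log2 scale, against 84% and 83.4% of all genes. In all, 63 of the 76 genes were called in neither genotype, and 13 were called in at least 1, each with the same sign of change in the other. Such signs were not counted over all genes, so the agreement is not shown to be particular to these enzymes.

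**Figure D2:**
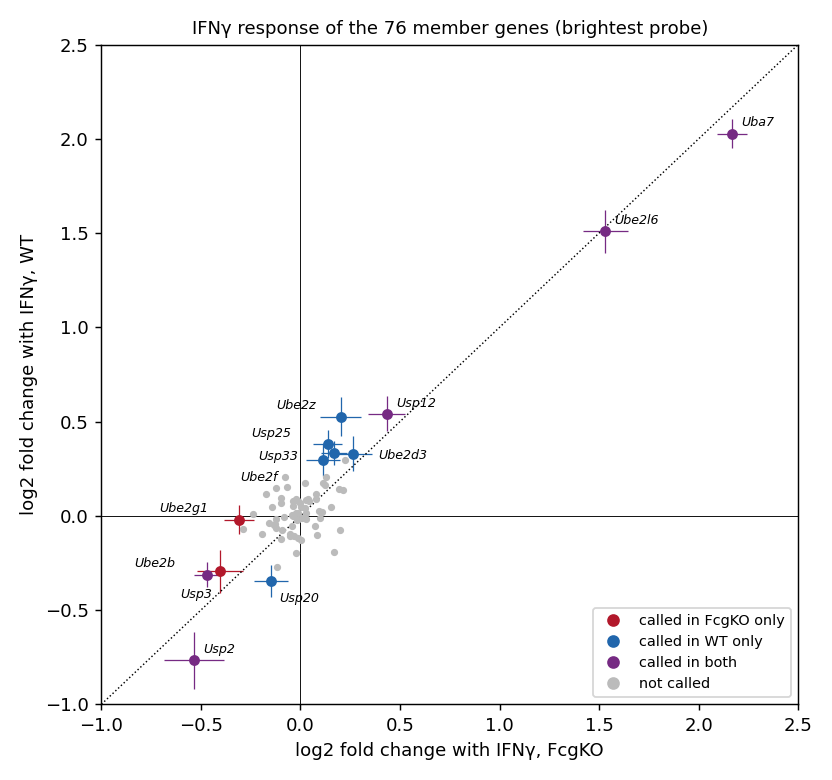
Log2 fold change with IFNγ in FcgKO (horizontal) and in WT (vertical) for the brightest probe of each of the 76 genes, with called genes coloured by genotype and given bars of 1 standard error of the limma fit, and a dotted line of equal change. Uba7 (2.17 and 2.03) and Ube2l6 (1.53 and 1.51) stand far up the diagonal, while the other genes lie between -0.77 and 0.54.

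The E1 gene of ISG15 carried the largest change. Uba7 had an intensity of 2349 and 2365 in FcgKO samples with IFNγ and 519 and 585 without it, and of 2006 and 1978 in WT samples with IFNγ and 507 and 523 without it. All stimulated samples lay far above all unstimulated ones in both genotypes. After background correction this was a 4.50-fold rise in FcgKO (log2 2.17 (SE 0.08), adjusted p = 6.49e-09) and a 4.08-fold rise in WT (log2 2.03 (SE 0.08), adjusted p = 1.14e-08). Subtracting the WT response from the FcgKO response left 0.14 on the log2 scale (95% interval -0.09 to 0.38, adjusted p = 0.898). With IFNγ alone, FcgKO samples were both above WT samples, but the difference of 0.25 did not pass (adjusted p = 0.153).

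The other E1 genes gave no called change. Uba3, the catalytic subunit of the NEDD8 E1, had 222 and 256 in FcgKO with IFNγ, 230.0 and 239 in FcgKO without it, 244 and 253 in WT with IFNγ and 263 and 238 in WT without it. The groups overlapped, with log2 changes of 0.02 in FcgKO and -0.01 in WT. Uba6, an E1 of both ubiquitin and FAT10, and Uba1y, the Y-linked ubiquitin E1 of mice, were under the array median on all 8 arrays, with mean intensities of 96.2 and 92.5. Their log2 changes lay between -0.10 and 0.08. Uba1 and Uba2 were not among the 4 E1 genes measured under the symbol rule, so they were not analysed here.

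Ube2l6, the E2 of ISG15, rose beside Uba7. Its intensity was 394 and 407 in FcgKO samples with IFNγ and 151 and 173 without it, and 367 and 455 in WT samples with IFNγ and 172 and 160.4 without it. Stimulated and unstimulated samples did not overlap in either genotype, and the genotypes overlapped within each condition. The rise was 2.89-fold in FcgKO (log2 1.53 (SE 0.11), adjusted p = 4.02e-06) and 2.85-fold in WT (log2 1.51 (SE 0.11), adjusted p = 4.41e-06). The responses differed by 0.02 (95% interval -0.33 to 0.38, adjusted p = 0.995). Uba7 and Ube2l6 each have 1 probe, so their rises rest on that probe.

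The rest of the ISG15 relay can be set beside these members, although those genes were outside the set. Isg15 itself had 2151 and 2481 in FcgKO with IFNγ, 214 and 269 in FcgKO without it, 1693 and 1641 in WT with IFNγ and 308 and 251 in WT without it. It rose by 3.48 in FcgKO and 2.75 in WT on the log2 scale. The ISG15 protease gene Usp18 rose by 3.22 in FcgKO and 2.09 in WT. For neither gene was the difference between the genotypes' responses called (adjusted p = 0.416 for Isg15 and 0.493 for Usp18). Arih1, a ligase that can attach ISG15, rose in WT (log2 0.30, adjusted p = 0.0265) and was not called in FcgKO (0.20, adjusted p = 0.169). Without either unstimulated WT sample, or without the second WT sample with IFNγ, the Arih1 call was lost, with adjusted p up to 0.224. Trim25, another such ligase, was not called (0.11 in FcgKO and 0.08 in WT). Of the 6 ISG15 genes measured, Uba7 and Ube2l6 among them, 4 rose in FcgKO and 5 in WT, with median log2 changes of 1.85 and 1.77. Of all genes, 5.02% were called higher in FcgKO and 5.53% in WT. The difference between the responses was called for 0 of the 6 ISG15 genes, Arih1 among them.

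**Figure D3:**
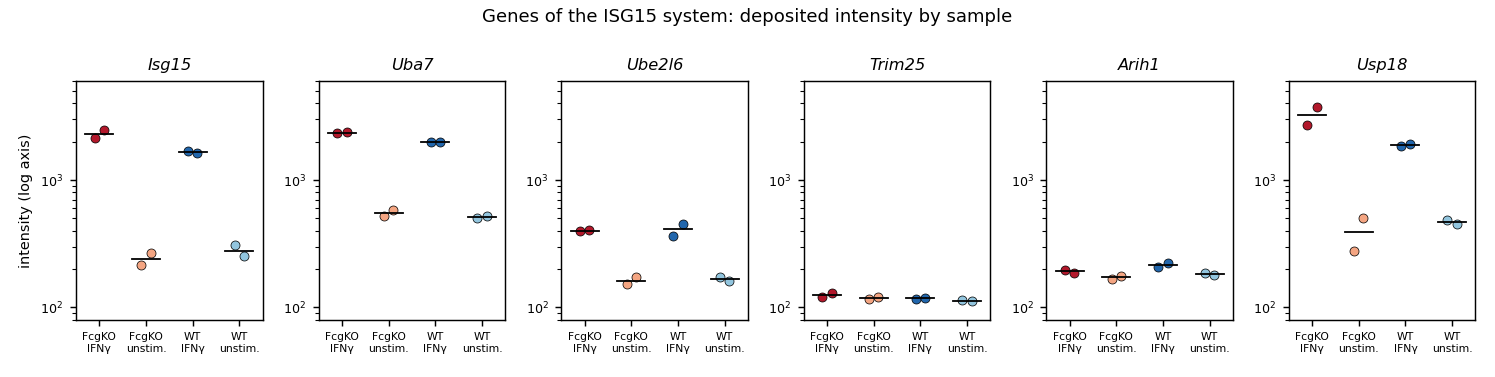
Normalised intensity (log axis, arbitrary units) of 6 genes of the ISG15 relay in each of the 8 samples, by group. Isg15, Uba7, Ube2l6 and Usp18 are higher in all IFNγ samples than in all unstimulated samples, and Trim25 stays between 113 and 129.

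The start regions of Uba7 and Ube2l6, the members with the largest rises, are shown because the letters before a start site can be compared with the response element known for interferon-induced genes. They are from RefSeq (GRCm38.p6), from 250 bases before to 50 after the start, 5′ to 3′ on the strand of the gene. Capitals mark a match. The windows are chr9:107975317-107975616 (plus strand) for Uba7 and chr2:84798578-84798877 (plus strand) for Ube2l6.
Uba7 promoter: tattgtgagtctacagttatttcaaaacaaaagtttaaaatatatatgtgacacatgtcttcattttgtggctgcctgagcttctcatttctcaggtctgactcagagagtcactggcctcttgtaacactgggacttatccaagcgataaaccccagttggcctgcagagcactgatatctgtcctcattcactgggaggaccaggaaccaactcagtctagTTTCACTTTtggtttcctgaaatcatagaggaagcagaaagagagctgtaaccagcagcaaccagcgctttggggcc
Ube2l6 promoter: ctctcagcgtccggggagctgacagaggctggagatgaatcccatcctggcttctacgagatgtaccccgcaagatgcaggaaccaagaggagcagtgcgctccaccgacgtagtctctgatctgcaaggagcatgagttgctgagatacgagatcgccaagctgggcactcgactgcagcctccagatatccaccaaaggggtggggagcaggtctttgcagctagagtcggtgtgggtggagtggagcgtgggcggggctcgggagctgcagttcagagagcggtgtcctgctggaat

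In the Uba7 window the capitals TTTCACTTT begin 27 bases before the start. They match TTTCNNTTT, the core of the interferon-stimulated response element in a form chosen after this sequence had been read. That pattern is common: it is found in 10.6% of all 32851 promoters and 8.70% of the 69 member promoters. Counted by gene, it is in 12.1% of all genes and 10% of the members that had a promoter in the table. Among such members it is in 1 of the 7 that rose (14.3%), in 0 of the 5 that fell and in 5 of the 48 not called (10.4%). The 1 that rose is Uba7 itself, whose sequence had been read before the form was chosen. Its match was thus fixed in advance, and the shares cannot show a link to the rise. The Ube2l6 window does not hold it. Both strands were searched, 60 of the 76 genes had a promoter, and a match is a description of letters, not of binding.

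Beyond Ube2l6, 3 E2 genes were called higher in WT and 2 were called lower in at least 1 genotype. Ube2z, which takes ubiquitin and FAT10 from Uba6, had 212 and 218 in FcgKO with IFNγ and 185 and 198 without it, and 227 and 259 in WT with IFNγ and 193 and 167 without it. The WT groups lay clearly apart and the FcgKO groups by less. The log2 change was 0.20 in FcgKO (adjusted p = 0.324) and 0.53 in WT (SE 0.10, adjusted p = 0.00513). The WT call was lost without the second WT sample with IFNγ (adjusted p = 0.0723). A dimmer probe of Ube2z had the same sign in WT (0.14) and was not called.

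Ube2d3, a relative of Ube2d2a, had 202 and 223 in FcgKO with IFNγ and 174 and 191 without it, and 203 and 225 in WT with IFNγ and 182 and 173 without it. The stimulated samples were above the unstimulated ones in both genotypes. The WT change of 0.33 passed narrowly (adjusted p = 0.0405), and the FcgKO change of 0.27 did not (adjusted p = 0.111). Without either unstimulated WT sample or the second WT sample with IFNγ, the WT call was lost (adjusted p = 0.0695, 0.204 and 0.312).

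Ube2f, the NEDD8 E2 that pairs with cullin ligases, had a log2 change of 0.30 in WT (adjusted p = 0.042) and 0.11 in FcgKO (adjusted p = 0.577). Its 3 other probes changed by 0.27 to 0.38 in WT without being called. The WT call was kept in 2 of the 8 fits that left out a sample. It was lost without any 1 of the 4 WT samples or of the 2 FcgKO samples with IFNγ, with adjusted p up to 0.289.

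Ube2b fell in both genotypes. It had 1104 and 1099.6 in FcgKO with IFNγ and 1489.7 and 1536 without it, and 1188 and 1162 in WT with IFNγ and 1473 and 1426 without it. The replicates lay close together and the conditions far apart. It fell by 0.47 on the log2 scale in FcgKO (SE 0.07, adjusted p = 0.000624) and by 0.31 in WT (SE 0.07, adjusted p = 0.00859). The WT call was lost without the first unstimulated sample (adjusted p = 0.0572) or the second sample with IFNγ (0.0676). Its close relative Ube2a had changes of -0.10 and -0.13 in FcgKO and WT, and was not called. The second Ube2b probe was under the array median on every array.

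Ube2g1, an E2 for degradation chains that also serves proteins leaving the endoplasmic reticulum, had 342 and 312 in FcgKO with IFNγ and 399.7 and 392 without it, and 374 and 396 in WT with IFNγ and 400.1 and 379.6 without it. Only in FcgKO were the conditions apart. It fell by 0.31 in FcgKO (SE 0.08, adjusted p = 0.0238), and the WT change was -0.02 (adjusted p = 0.948). The difference of -0.29 between the responses did not pass (adjusted p = 0.629). Its 2 other probes changed by -0.07 and -0.04 in FcgKO and were not called. The call was lost without either unstimulated FcgKO sample or the second FcgKO sample with IFNγ (adjusted p = 0.145, 0.0951 and 0.186).

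The remaining E2 genes were not called with IFNγ. Ube2n, the E2 of signalling chains downstream of Toll-like receptors, had log2 changes of -0.12 in FcgKO and -0.27 in WT (adjusted p = 0.144). A dimmer Ube2n probe had -0.04 and 0.12. Ube2o, an enzyme that combines E2 and E3 roles, had -0.29 in FcgKO (adjusted p = 0.0762) and -0.07 in WT. Ube2d2a, with the highest intensity, had 0.00 and -0.13, while its second probe, above the array median on all 8 arrays, had 0.16 and 0.18. Ube2e1, another E2 of RING ligases, had 0.21 and 0.14. Ube2c, Ube2s and Ube2t, E2 genes of cell division and DNA repair, had -0.03, -0.07 and -0.24 in FcgKO and -0.10, 0.15 and 0.01 in WT. Of 9 cell division genes, 0 were called in FcgKO and 1, Cdk1, fell in WT. Among all genes, 12% were called in either direction in FcgKO and 13.2% in WT, a distance not tested. Of the 9, 3 (Ccnb2, Bub1 and Ccna2) lay under the array median on every array. Ube2c lay above it on 1 array and Ube2t on 2. Changes of such dim probes are understated, so a change in these genes could have been missed.

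Among Usp genes, Usp12 was the one that rose in both genotypes. Its product works with the WD-repeat protein of Wdr48. It had 201 and 219 in FcgKO with IFNγ and 154 and 175 without it, and 192 and 205 in WT with IFNγ and 152 and 143 without it. All stimulated samples were above all unstimulated ones. The rise was 0.43 on the log2 scale in FcgKO (SE 0.09, adjusted p = 0.0103) and 0.54 in WT (SE 0.09, adjusted p = 0.00229). The FcgKO call was lost without its first unstimulated sample (adjusted p = 0.122) or its second sample with IFNγ (0.0885). The near relative Usp46, which also works with Wdr48, had changes of -0.08 and -0.01 at an intensity near the array median. Another Usp12 probe, near the array median too, had -0.07 in FcgKO and 0.03 in WT.

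Usp25, which acts on innate signalling adaptors, had 120.5 and 119 in FcgKO with IFNγ and 109 and 115 without it, and 131 and 138 in WT with IFNγ and 110.4 and 113 without it. Both stimulated WT samples were above all other samples. It rose in WT (log2 0.38 (SE 0.07), adjusted p = 0.00547), not in FcgKO at this threshold (0.14, adjusted p = 0.378). Without the second WT sample with IFNγ, the WT call was lost (adjusted p = 0.0657).

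Usp33, a deubiquitinase of membrane receptors, had 570.3 and 573 in FcgKO with IFNγ and 514 and 509 without it, and 651 and 635 in WT with IFNγ and 518 and 516 without it. The replicates lay close together and the conditions were apart in both genotypes. The log2 change was 0.17 in FcgKO (adjusted p = 0.15) and 0.33 in WT (SE 0.06, adjusted p = 0.00489). The difference between the responses was not called for Usp25 (-0.24, adjusted p = 0.702) or Usp33 (-0.16, adjusted p = 0.818).

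Usp2, known for stabilising cell cycle regulators and for its daily rhythm, fell in both genotypes. It had 189.9 and 194 in FcgKO with IFNγ and 247 and 279 without it, and 127 and 136 in WT with IFNγ and 169 and 237 without it. The 2 unstimulated WT samples lay far apart, and both were above the stimulated WT samples. It fell by 0.53 on the log2 scale in FcgKO (SE 0.15, adjusted p = 0.0467) and by 0.77 in WT (SE 0.15, adjusted p = 0.00572). In FcgKO the call was kept in 2 of the 8 fits that left out a sample. It was lost without any 1 of the 4 FcgKO samples or of the 2 WT samples with IFNγ, with adjusted p up to 0.292. In WT it was lost without the first sample with IFNγ (adjusted p = 0.0675). The 2 other Usp2 probes were under the array median on every array.

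Usp3, a deubiquitinase of histones, had 458 and 445 in FcgKO with IFNγ and 641 and 536 without it, and 459.6 and 531 in WT with IFNγ and 546 and 656 without it. The stimulated samples were lower in both genotypes. The log2 change was -0.40 in FcgKO (SE 0.12, adjusted p = 0.0483) and -0.29 in WT (adjusted p = 0.158). Its second probe fell in both, by 0.47 in FcgKO (adjusted p = 0.00241) and by 0.28 in WT (adjusted p = 0.042). The call of the brighter probe in FcgKO was kept in 3 of the 8 fits that left out a sample. It was lost without the first unstimulated FcgKO sample or any 1 of the 4 samples with IFNγ, with adjusted p up to 0.376.

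Usp20, a relative of Usp33, had 195 and 206 in FcgKO with IFNγ and 229 and 209.9 without it, and 183 and 171 in WT with IFNγ and 206 and 225 without it. The conditions did not overlap in either genotype, and were closest in FcgKO. The log2 change was -0.15 in FcgKO (adjusted p = 0.405) and -0.34 in WT (SE 0.09, adjusted p = 0.0214). Without the second unstimulated WT sample, or the second with IFNγ, the call was lost (adjusted p = 0.16 and 0.186). Of the other Usp genes, Usp7, which acts on p53 and its ligase, had 0.22 in FcgKO and 0.29 in WT (adjusted p = 0.242 and 0.0937). Usp14, which sits on the proteasome, had -0.09 and -0.08. Usp8, which acts on endosomes, had 0.12 and 0.16.

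**Figure D4:**
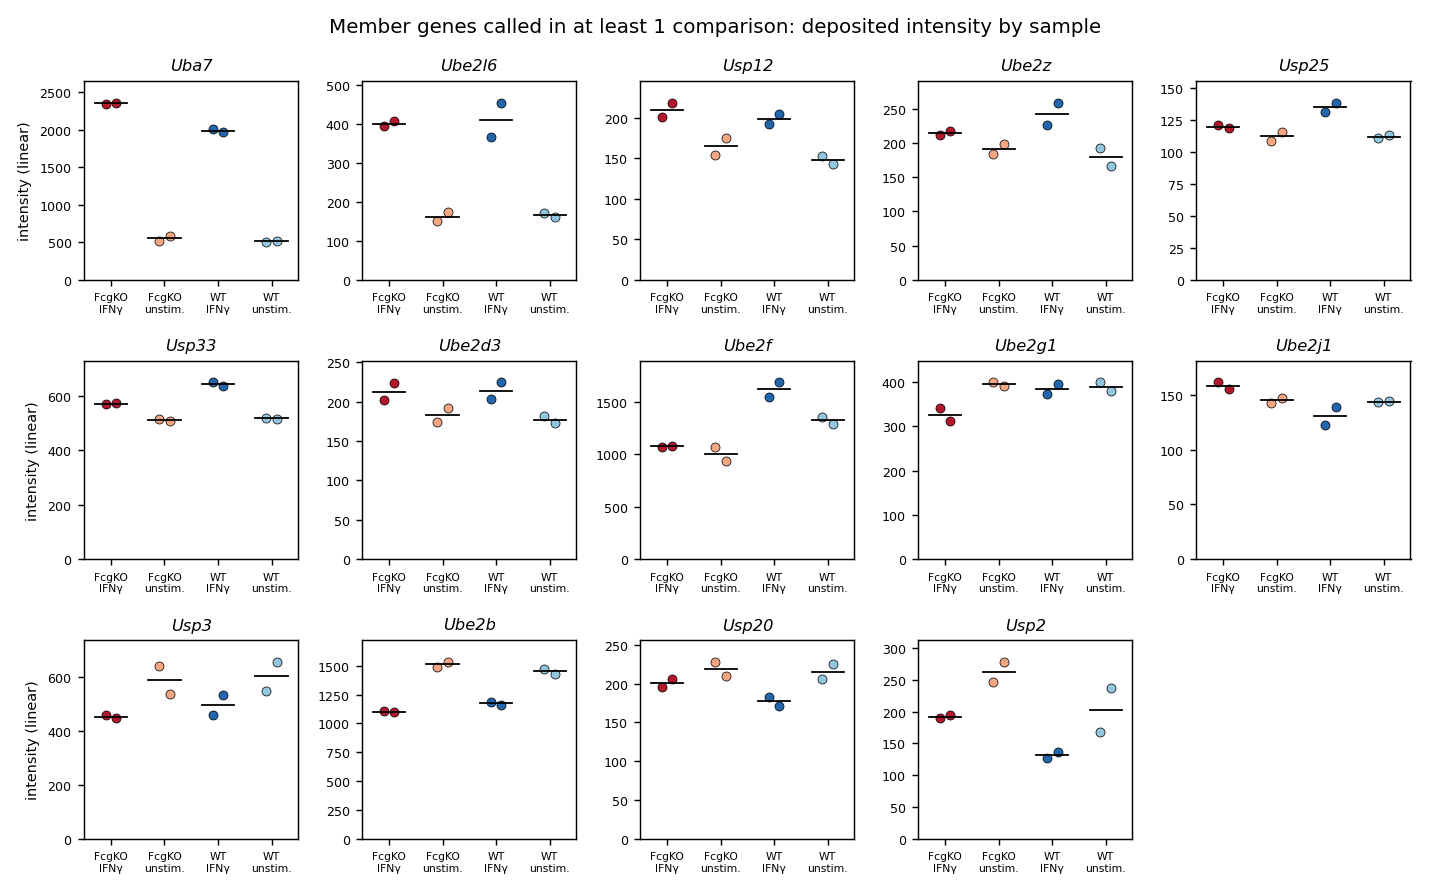
Normalised intensity (arbitrary units) in each of the 8 samples for the 14 genes called in at least 1 comparison, a panel a gene, by group. Uba7 and Ube2l6 separate fully by IFNγ in both genotypes, whereas Ube2f separates by genotype.

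What the loss of the γ chain did to these genes was asked without and with IFNγ. In unstimulated cells 0 of the 76 genes were called by limma, against 0.832% of all genes. An unadjusted p below 0.05 was found for 4 of the 76, against 8.67% of all genes. With IFNγ, 2 were higher in FcgKO (2.63%, against 1.29% of all genes) and 1 was lower (1.32%, against 1.64%). The shares called are near the background. With IFNγ, 14 of the 76 had an unadjusted p below 0.05, against 12.7% of all genes, a distance not tested. Median log2 differences were 0.02 without and -0.02 with IFNγ, against 0.00 and 0 over all genes, and 97.4% and 93.4% of the 76 genes lay within 0.25 of zero.

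Ube2f was the gene called lower in FcgKO. Its brightest probe had 1074 and 1084 in FcgKO and 1552 and 1690.0 in WT with IFNγ, and 1073 and 932 in FcgKO and 1359.5 and 1289.7 in WT without it. All FcgKO samples were below all WT samples. With IFNγ the difference was -0.60 on the log2 scale (95% interval -0.79 to -0.42, adjusted p = 0.00244). Without IFNγ it was -0.42 (-0.60 to -0.23) and just missed the threshold (limma, adjusted p = 0.0536). With the replicate number as a block it was called there too. In each of the 8 fits that left out a sample the call with IFNγ was kept, with adjusted p up to 0.0436.

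All 4 Ube2f probes gave differences of the same sign. Without IFNγ they were -0.42, -0.41, -0.42 and -0.28, from the brightest probe to the dimmest. With IFNγ they were -0.60, -0.59, -0.47 and -0.41, and the 2 brighter probes were called (adjusted p = 0.00244 and 0.00425), while the others just missed (0.0568 and 0.0522). Only the brightest and the second probe kept all FcgKO samples below all WT samples. Ube2f lies on chromosome 1 (GRCm38.p6, 91249690 to 91286521), as does Fcer1g (171229572 to 171234349), 80 Mb and 453 protein-coding genes away. The other members on that chromosome were Usp37, at 96.8 Mb, and Ube2t, at 36.3 Mb, and neither was called.

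**Figure D5:**
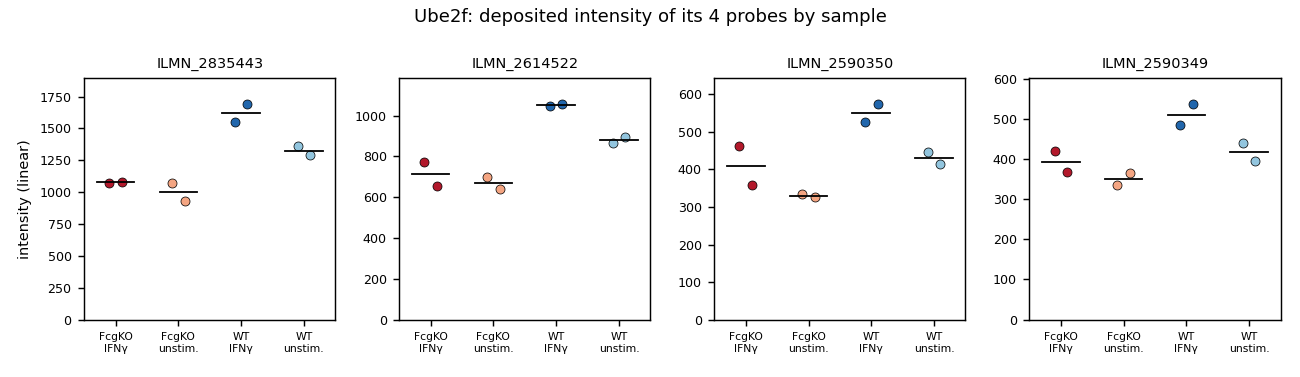
Normalised intensity (arbitrary units) of the 4 Ube2f probes in each of the 8 samples, by group. In each probe the FcgKO means are below the WT means of the same condition, by 0.28 to 0.60 on the log2 scale of the fit.

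Usp2 and Ube2j1 were the genes called higher in FcgKO with IFNγ. Usp2 had the intensities given above, 189.9 and 194 in FcgKO against 127 and 136 in WT, a log2 difference of 0.70 (95% interval 0.37 to 1.03, adjusted p = 0.033). Without IFNγ it was 0.47 (adjusted p = 0.336). The call was kept in 2 of the 8 fits that left out a sample. It was lost without any 1 of the 4 FcgKO samples or of the 2 WT samples with IFNγ, with adjusted p up to 0.254. Ube2j1, an E2 anchored in the endoplasmic reticulum that serves the removal of misfolded proteins, had 162 and 155 in FcgKO and 122 and 139 in WT with IFNγ, and 142 and 147 in FcgKO and 143 and 144 in WT without it. The genotypes were apart with IFNγ and alike in level without it. The difference with IFNγ was 0.37 (95% interval 0.19 to 0.56, adjusted p = 0.0448). Of the 8 fits that left out a sample, 1 kept it, the one without the second WT sample with IFNγ, and the adjusted p reached 0.33.

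Near these, Usp47, a deubiquitinase of DNA base excision repair, had 579 and 593 in FcgKO against 721 and 683 in WT with IFNγ. The samples did not overlap, and the difference of -0.28 did not pass (adjusted p = 0.0613). Ube2g1 had -0.26 (adjusted p = 0.125). In unstimulated cells, Usp4, a deubiquitinase of receptor and innate signalling, had 0.20 (adjusted p = 0.396) and Usp5, which recycles free ubiquitin chains, had -0.19 (adjusted p = 0.579). Mast cell markers differed between the same groups: 3 of 5 were lower in FcgKO without IFNγ and 5 of 5 with it, with median log2 differences of -0.85 and -1.08. Their part in the differences of Ube2f, Usp2 and Ube2j1 was not tested, nor was that of the macrophage, neutrophil or B cell markers.

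The difference between the responses of the genotypes was tested for itself. It was called for 0 of the 76 genes, against 0.0422% of all genes. An unadjusted p below 0.05 was found for 7 of the 76, against 7.44% of all genes. Among differences above 0, the smallest p belonged to Ube2j1 (0.36, 95% interval 0.09 to 0.62, adjusted p = 0.573), followed by Usp1, which acts in DNA crosslink repair (0.28, adjusted p = 0.735). Among those below 0, it belonged to Usp47 (-0.28, adjusted p = 0.57), Usp16, a histone deubiquitinase (-0.27, adjusted p = 0.579) and Ube2e2, an E2 of RING ligases (-0.29, adjusted p = 0.621). The genes called in 1 genotype alone were therefore not shown to respond differently in the other. All 3 genes that rose in FcgKO were among the 8 that rose in WT, which is 100% of the list in FcgKO and 37.5% of that in WT. Usp2 and Ube2b fell in both, 50% of the 4 that fell in FcgKO and 66.7% of the 3 in WT. The same overlap was not counted over all genes, so these shares have no background beside them.

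Other genes of the system were counted by list, against 12% of all genes called in either direction in FcgKO and 13.2% in WT. The list of deubiquitinases of other families held 33 genes and also took in the SUMO protease Senp3. Of the 33, 1 rose and 4 fell in FcgKO, and 2 rose and 4 fell in WT, with median log2 fold changes of -0.05 and -0.08. Cyld, which cuts signalling chains in the NF-κB pathway, had 1257 and 1474 in FcgKO with IFNγ and 648 and 658 without it, and 1417 and 1316 in WT with IFNγ and 695 and 704 without it. It rose in both genotypes, by 1.10 in FcgKO and 1.00 in WT (adjusted p = 5.41e-06 and 1.09e-05). Uchl3, a processing enzyme of ubiquitin and NEDD8, fell in both, by 0.50 in FcgKO and 0.70 in WT (adjusted p = 0.00969 and 0.000994). The FcgKO call was lost without the second unstimulated or the first stimulated FcgKO sample (up to 0.0905). Tnfaip3, the gene of the NF-κB inhibitor A20, had 438 and 440.4 in FcgKO and 775 and 742 in WT with IFNγ, a difference of -0.84 (adjusted p = 0.00155). With IFNγ it had 0.02 in FcgKO (limma, adjusted p = 0.956) and rose by 0.46 in WT (adjusted p = 0.0176). That WT call was lost without the second unstimulated WT sample or either WT sample with IFNγ. The difference between the responses was called for 0 of the 33 genes, Tnfaip3 among them (lowest log2 value -0.43). Between the unstimulated genotypes 0 of the 33 were called as well (lowest -0.41).

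Otulin, which cuts linear ubiquitin chains, fell in both genotypes, by 0.31 in FcgKO (adjusted p = 0.019) and 0.37 in WT (adjusted p = 0.00572). The FcgKO call was lost without any 1 of the 4 FcgKO samples (up to 0.152), and the WT call without the second unstimulated WT sample (0.0555). Atxn3, the gene of the deubiquitinase ataxin-3, fell by 0.52 in FcgKO (adjusted p = 0.00288) and had -0.23 in WT (adjusted p = 0.162). Otud7b, of the OTU family, fell by 0.29 in FcgKO (adjusted p = 0.033), a call lost without any 1 of the 4 FcgKO samples (up to 0.247), and had -0.09 in WT (adjusted p = 0.658). Senp3, a SUMO protease, had -0.16 in FcgKO (adjusted p = 0.296) and fell by 0.41 in WT (adjusted p = 0.0042). Uchl5, a deubiquitinase of the proteasome, had -0.18 in FcgKO (adjusted p = 0.16) and fell by 0.32 in WT (adjusted p = 0.0108). The Uchl5 call was lost without the second unstimulated WT sample or either WT sample with IFNγ (up to 0.0799).

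Of the 10 genes of ubiquitin and its relatives, 1 rose in FcgKO, and 2 rose and 2 fell in WT, with median log2 fold changes of -0.02 and -0.06. Isg15 rose in both genotypes. Nedd8, the gene of the modifier of cullins, had -0.17 in FcgKO (adjusted p = 0.243) and fell by 0.32 in WT (adjusted p = 0.0198). Fau, the gene of a ubiquitin-like protein fused to a ribosomal protein, had -0.09 in FcgKO (adjusted p = 0.648) and fell by 0.25 in WT (adjusted p = 0.0449). The Nedd8 call was lost without either unstimulated WT sample or the first WT sample with IFNγ (up to 0.162), and the Fau call without any 1 of the 8 samples (up to 0.244).

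Ubd, the gene of FAT10, had 115 and 109.6 in FcgKO with IFNγ and 103 and 105 without it, and 133 and 133 in WT with IFNγ and 104 and 107 without it. It rose in WT (log2 0.48, adjusted p = 0.000637), had 0.16 in FcgKO (adjusted p = 0.207), and was lower in FcgKO than in WT with IFNγ (-0.35, adjusted p = 0.0196). That last call was lost without either WT sample or the second FcgKO sample with IFNγ (up to 0.154). The difference between the responses was called for 0 of the 10 genes of ubiquitin and its relatives, Ubd among them. Of 10 partner and E1- or E2-like genes of other names, Sae1, a subunit of the SUMO E1, fell in FcgKO (-0.34, adjusted p = 0.0395). Atg7, the E1-like enzyme of autophagy, fell in WT (-0.35, adjusted p = 0.0456). For 0 of these partner genes was the difference between the responses called. The Sae1 call was lost without any 1 of the 4 FcgKO samples (adjusted p up to 0.275). That of Atg7 was lost without the first unstimulated WT sample, either WT sample with IFNγ or either unstimulated FcgKO sample (up to 0.331). G3bp1, a partner of Usp10, fell by 0.32 in each genotype (adjusted p = 0.0275 in FcgKO and 0.0256 in WT). In FcgKO this was lost without the first unstimulated sample or either sample with IFNγ (up to 0.242), and in WT without the first unstimulated or the second stimulated sample (up to 0.215).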

How the data were processed

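The 8 macrophage samples were each run on an Illumina MouseRef-8 v2.0 array, per the labels. The submitters' processing notes name GenomeStudio. Its version and settings are not given in the sources used here. The deposited intensity values, 1 column a sample, are linear, from 82.1 to 22479. Once sorted, the columns were alike to within 0.0058 (log2), so the authors had normalised the intensities between arrays, by a method not stated. Another 16 value columns named by array number only could not be assigned to samples and were not used, so there is no detection call.

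Intensities were background-corrected (normexp, offset 50), taken to log2 and fitted by limma 3.58.1 in R 4.3.3 (lmFit, eBayes), with a mean for each of the 4 groups. There were 4 residual and 7.05 prior degrees of freedom. All 25697 probes entered the fit, and Benjamini-Hochberg adjustment ran over all of them. A call is an adjusted p below 0.05, two-sided. The offset understates fold changes of dim probes. A gene was counted by its brightest probe, the one with the highest mean over the arrays. Of the probes, 23978 had 1 symbol and 1719 none. Arrays have no read depth, and their number limits the precision. No slide or scan date was given, so batches could not be tested.

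The members, role groups and lists were chosen with earlier results of these data known. Named were the members called in a contrast, otherwise up to 3 with the smallest p a direction, the E1 genes, the brightest members, up to 4 of largest change in a role group, and called genes of the pathway lists. The replicate numbers in the titles pair no mice by the labels. Deviations of same-numbered samples correlated between -0.031 and 0.205 in 6 pairings of groups, 2 of them over 0.1, so the numbers were not taken as pairs. Promoters were from RefSeq (GRCm38.p6), and figures were drawn with matplotlib 3.10.9 under Python 3.11.15.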

Additional observations from a re-analysis of the deposited data

How the results depend on the processing

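Of the 21 calls of members, 0 reversed in any of 14 alternatives, 7 were kept in all of them and 8 in every fit that left out 1 sample. Those kept in all were Uba7 and Ube2l6 in both genotypes, Usp12 in WT, Ube2b in FcgKO and Ube2f in FcgKO against WT with IFNγ. Usp33 in WT was lost at an offset of 16 (adjusted p = 0.107), as were Ube2b, Ube2d3, Ube2f and Usp20 in WT. Also lost there were Ube2g1, Usp2 and Usp3 in FcgKO, and Ube2j1 in FcgKO against WT with IFNγ. With that offset in place of 50, 5 members rose and 1 fell in WT, 1 fell in FcgKO, and 1 was higher in FcgKO than WT with IFNγ. Without background correction, 2 fell in FcgKO, and with IFNγ 0 were higher and 2 lower in FcgKO. Leaving out each sample gave 4 to 8 rises and 1 to 4 falls in WT, and 2 to 4 rises and 1 to 4 falls in FcgKO. It gave, in FcgKO against WT, 0 to 1 higher and 0 lower without IFNγ (Usp2, without the second unstimulated WT sample), and 0 to 1 higher and 1 lower with it. An arm then holds 1 sample, which is assumed to vary like the others. For these losses the cause was not tested, beyond the fewer samples. A quantile step, 1 probe per gene and a filter on dim probes moved no count of members by over 1.5 times.

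With the replicate block, 1 member (Ube2f) was lower in unstimulated FcgKO, and all 21 calls were kept. Counts over all genes moved more. For unstimulated FcgKO against WT the 138 calls became 240 with the block, 85 at the offset of 16, 90 without background correction and 47 to 184 without 1 sample. For FcgKO against WT with IFNγ the 486 became 288 at that offset and 227 to 549 without 1 sample. For the difference of responses the 7 became 25 with the block, 3 at that offset, 2 without background correction, 3 with 1 probe per gene and 2 to 43 without 1 sample. Leaving out 1 sample gave 1386 to 2254 calls in WT (2197 with all) and 1206 to 2161 in FcgKO (1993 with all). Probes near the array median limit what can be seen, since the offset shrinks their changes.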
